A study of Mus musculus with 4 samples.

Results

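The wide MIXL1 peaks are the stretches of 1000 bp or more in the list of chromatin regions recovered with FLAG-tagged MIXL1 from differentiating mouse epiblast stem cells. They were selected by width alone, on the mouse autosomes other than chromosome 12 and outside 1-Mb bins that held 20 or more peak centres. There were 755 of them, against 6303 narrower peaks on the same chromosomes and bins and 9598 peaks in the whole list. The series comprised 2 libraries from chromatin precipitated with the anti-FLAG M2 antibody and 2 libraries of input chromatin. Both kinds came from epiblast stem cell lines, a cultured pluripotent cell type, that carried an inducible Mixl1 gene. Culture was on a feeder layer of irradiated mouse embryo fibroblasts, with bFGF at 10 ng/mL and activin A at 20 ng/mL, followed by 2 days as embryoid bodies in serum, and doxycycline at 1 µg/mL was present for the final 24 h. All libraries therefore came from cells given the inducer, and cells without doxycycline were not analysed here. The list has no score, height or column per library, so sequencing depth is unknown, no value has a replicate error, and a peak cannot be compared between the replicates or with the input. Fibroblast DNA from the feeder layer could not be told apart from that of the epiblast stem cells.

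MIXL1 is a paired-type homeodomain transcription factor that is switched on in the primitive streak, the region of the gastrulating embryo from which mesoderm and endoderm arise, and it is required for normal formation of definitive endoderm. Its homeodomain recognises the core TAAT, and paired-type proteins bind as dimers where a TAAT and its reverse complement ATTA face each other across a few bases. The width of a called peak is the stretch over which the caller found more reads than its background, so it depends on fragment length, depth and the threshold of the caller as well as on the protein.

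Few wide or narrower peaks lay over promoters, and the promoters under wide peaks included those of Cer1, Lmo1 and Zfp763 and of long non-coding RNAs. In the RefSeq promoter table of GRCm38.p6 (250 bases before to 50 after a start site), 27 of the 755 wide peaks overlapped 33 promoters of 29 genes. Of these promoters, 14 belonged to protein-coding genes and 19 to long non-coding RNAs. Of the 6303 narrower peaks, 290 overlapped 344 promoters, 223 of them of protein-coding genes and 121 of long non-coding RNAs. All 30119 promoters on the same chromosomes comprised 19362 and 10757 of these kinds. A wider peak overlaps a promoter more readily, so the counts of wide and narrower peaks are not on equal terms. Promoters of 4 genes under wide peaks are printed as examples picked from those that carry 3 or more TAAT cores. Others with 3, such as those of Gm5165, 1600019K03Rik and Lpar6, are not printed. Capitals mark every TAAT on the printed strand and every ATTA, which is TAAT on the other strand. Cer1 encodes a secreted inhibitor of Nodal, BMP and Wnt ligands made by anterior endoderm, and its promoter lies at chr4:82885102-82885401 on the minus strand. Lmo1 encodes a LIM-only transcriptional cofactor, and the promoter shown is at chr7:109175158-109175457, minus strand. Zfp763 encodes a zinc finger protein (chr17:33033332-33033631, minus strand). Lncenc1, a long non-coding RNA studied in mouse embryonic stem cells, has its promoter at chr13:97434720-97435019 on the plus strand.
Cer1: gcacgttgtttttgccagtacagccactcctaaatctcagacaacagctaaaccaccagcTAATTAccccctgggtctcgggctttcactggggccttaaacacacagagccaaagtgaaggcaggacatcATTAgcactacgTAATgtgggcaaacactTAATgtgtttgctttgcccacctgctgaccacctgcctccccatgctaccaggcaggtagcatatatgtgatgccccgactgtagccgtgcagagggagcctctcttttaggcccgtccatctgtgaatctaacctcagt
Lmo1: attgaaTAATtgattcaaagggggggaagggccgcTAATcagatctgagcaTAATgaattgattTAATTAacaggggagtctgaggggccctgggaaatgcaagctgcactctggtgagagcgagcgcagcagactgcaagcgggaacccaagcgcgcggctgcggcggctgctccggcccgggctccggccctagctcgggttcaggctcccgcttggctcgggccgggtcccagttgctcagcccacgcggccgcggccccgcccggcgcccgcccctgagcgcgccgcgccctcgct
Zfp763: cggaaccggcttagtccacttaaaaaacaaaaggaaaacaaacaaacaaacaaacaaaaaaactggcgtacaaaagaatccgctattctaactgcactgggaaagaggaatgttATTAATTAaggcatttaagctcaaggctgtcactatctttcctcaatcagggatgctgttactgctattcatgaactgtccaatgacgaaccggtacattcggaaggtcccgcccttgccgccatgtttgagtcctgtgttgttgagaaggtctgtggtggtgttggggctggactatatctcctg
Lncenc1: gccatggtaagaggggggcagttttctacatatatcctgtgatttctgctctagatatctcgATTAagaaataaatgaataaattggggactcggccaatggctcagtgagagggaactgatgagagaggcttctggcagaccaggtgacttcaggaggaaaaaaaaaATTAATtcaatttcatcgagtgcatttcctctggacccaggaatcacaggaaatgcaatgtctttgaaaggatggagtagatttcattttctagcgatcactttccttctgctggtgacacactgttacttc

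The Cer1 promoter held 5 TAAT cores over both strands, in the form of 1 TAATTA and 3 separate cores. The Lmo1 promoter also held 5, all within its first part, where 3 single cores precede a TAATTA. The Zfp763 and Lncenc1 promoters held 3 each, as overlapping cores in ATTAATTA for Zfp763 and as ATTAAT plus a single core for Lncenc1. Among the 33 promoters under wide peaks, 23 (69.7%) had at least 1 TAAT on either strand and 6 (18.2%) had TAATTA. The 6 include both listed Lmo1 promoters, which overlap and hold the same TAATTA. Of the 344 promoters under narrower peaks, 70.6% had TAAT and 9.88% had TAATTA, and of all 30119 promoters on the same chromosomes 57.9% and 5.27% did. Every TAATTA holds a TAAT, so these counts overlap. A TAAT followed by ATTA across 2 bases was in 0 of the 33 promoters under wide peaks, 3 under narrower peaks and 119 of all promoters (0.395%). Across 3 bases it was in 0, 5 and 153 promoters in the same order. GC content differed little, with medians of 53.0% under wide peaks, 51.7% under narrower peaks and 53.0% over all promoters. These are descriptions of letters in a window and were not tested. They also cover a small share of the wide peaks, since sequence away from promoters was not analysed here.

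The widths of the members ran from 1000 to 7566 bp, with a median of 1309 bp and quartiles of 1117 and 1627 bp. Narrower peaks had a median of 443 bp and ran from 240 to 999 bp. Widths from 1000 to under 1500 bp accounted for 503 of the wide peaks, 178 measured from 1500 to under 2000 bp and 74 were of 2000 bp or more, 3 of which exceeded 5000 bp. The wide peaks were 10.7% of the peaks but held 26.5% of the bases, 1105.32 of 4174.08 kb. The threshold did not fall in a gap. The members just inside it measured 1000, 1000 and 1001 bp, nearest to Tbk1, Zfp831 and Bcl11a, and the peaks just outside it measured 999, 999 and 997 bp, nearest to Mdm4, Smim19 and Olfr993. The rule left out 464 further wide peaks, of which 277 lay on chromosome 12, 124 in dense bins of the other autosomes, 44 on contigs and 19 on chromosome X.

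**Figure D1:**
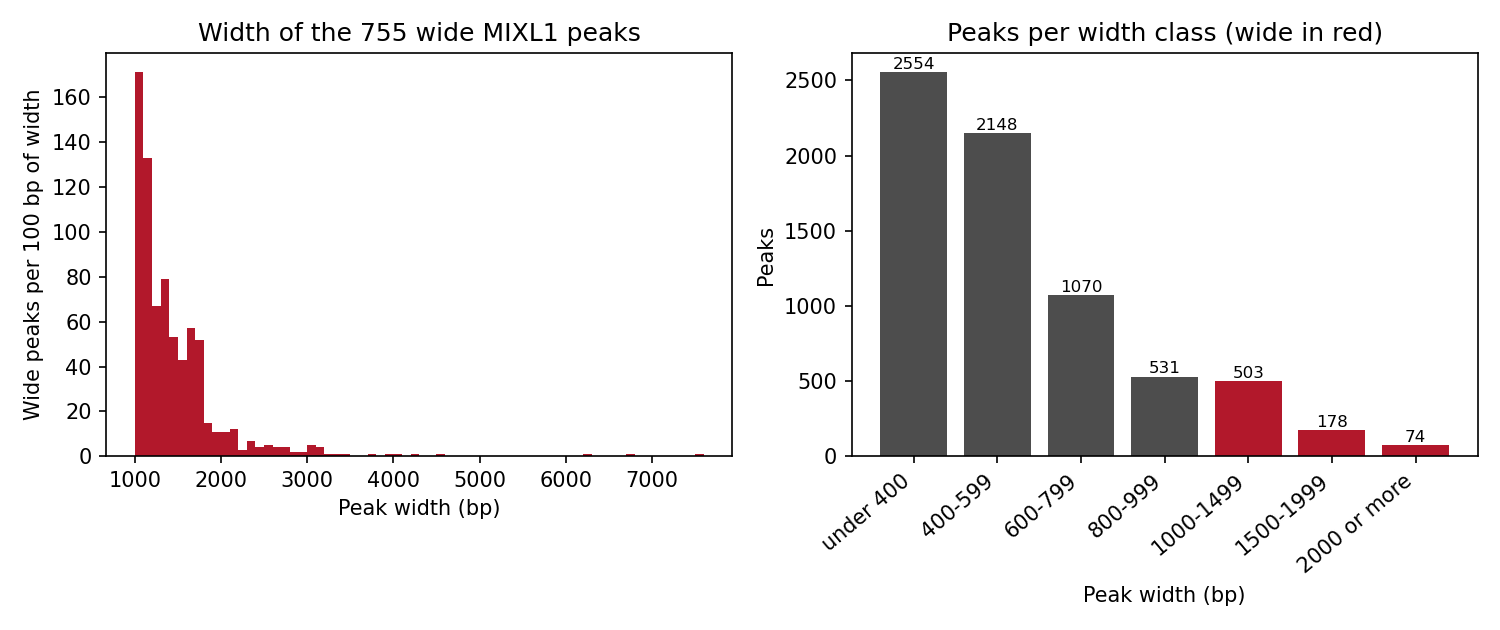
Left, number of wide peaks per 100 bp of width (x axis, bp) for the 755 members. Right, number of peaks in 7 width classes under the same chromosome and bin filters, with narrower classes in grey and wide classes in red. Numbers fall steeply with width, from 171 members of 1000 to under 1100 bp, but the range from 1600 to under 1800 bp stands above its neighbours.

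The 15 widest members lay inside genes or far from them and none was within 1 kb of a gene end. Of these, 7 were inside a protein-coding gene and 8 were outside genes. The widest, 7566 bp at chr6:65298089-65305654, lay 79.4 kb from an end of Qrfprl, and the peak nearest to it in the list was 657 kb away. The next, 6703 bp at chr13:6605855-6612557, lay inside Pfkp, which encodes the platelet-type phosphofructokinase, and the third, 6261 bp at chr1:31958589-31964849, lay 211 kb from Khdrbs2. Inside genes were also the peaks at Map6, a microtubule-associated protein gene (4598 bp), 4930444P10Rik (4291 bp), the heparan sulphate sulphotransferase gene Ndst3 (3935 bp), the kinesin gene Kif27 (3439 bp) and Arhgap24, which encodes a GTPase-activating protein (3173 bp). The remaining host among the 15 was Smad4, the shared partner of the SMAD proteins that carry Nodal, Activin and BMP signals. Its 3151-bp peak at chr18:73690142-73693292 lay 12.1 kb inside one end of the gene, and Smad4 had no narrower peak within 100 kb. Outside genes were the peaks near Igfbp7 (4091 bp), Abhd5 (3726 bp), Orc5 (3367 bp), Zfp763 (3238 bp), Lama2 (3185 bp) and Kbtbd12 (3148 bp). Neighbouring peaks lay 4.93 kb from the Zfp763 member and 1.52 kb from the Lama2 member, while the other 13 had their nearest neighbour at 39.2 kb or more.

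Wide peaks lay at the ends of protein-coding genes less often than narrower peaks did. Only 21 of the 755 wide peaks were centred no more than 1 kb from a protein-coding gene end (2.78%, 95% Wilson interval 1.83 to 4.21), against 493 of 6303 narrower peaks (7.82%, 7.18 to 8.51). The odds ratio was 0.337 (95% interval 0.205 to 0.526, adjusted p = 1.19e-07, two-sided Fisher's exact test with Benjamini-Hochberg adjustment over 4 classes). Outside annotated genes lay 330 wide peaks (43.7%) and 2383 narrower peaks (37.8%), an odds ratio of 1.28 (1.09 to 1.49, adjusted exact p = 0.00352). Inside protein-coding genes were 321 wide peaks (42.5%) and 2822 narrower peaks (44.8%), and the odds ratio of 0.912 had an interval of 0.781 to 1.07 (adjusted exact p = 0.245). Inside genes of other types only were 83 wide peaks (11%) and 605 narrower peaks (9.60%), with an odds ratio of 1.16 (0.901 to 1.49, adjusted exact p = 0.245). Peaks that lie close together are not independent, so the p-value of each test over peaks is too small. Among peaks of 2000 bp or more, with 1 of 74 at a gene end, neither the gene-end nor the outside difference passed.

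The share at gene ends fell through the width classes. From the narrowest class to the widest it was 9.55, 7.68, 5.79, 4.14, 3.18, 2.25 and 1.35%, the last resting on 1 peak. The share outside genes showed no such order, at 37.4, 39.2, 36.3, 37.3, 41.0, 53.4 and 39.2%, and was highest from 1500 to under 2000 bp. These shares by class are a description and add no test to the comparison above.

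**Figure D2:**
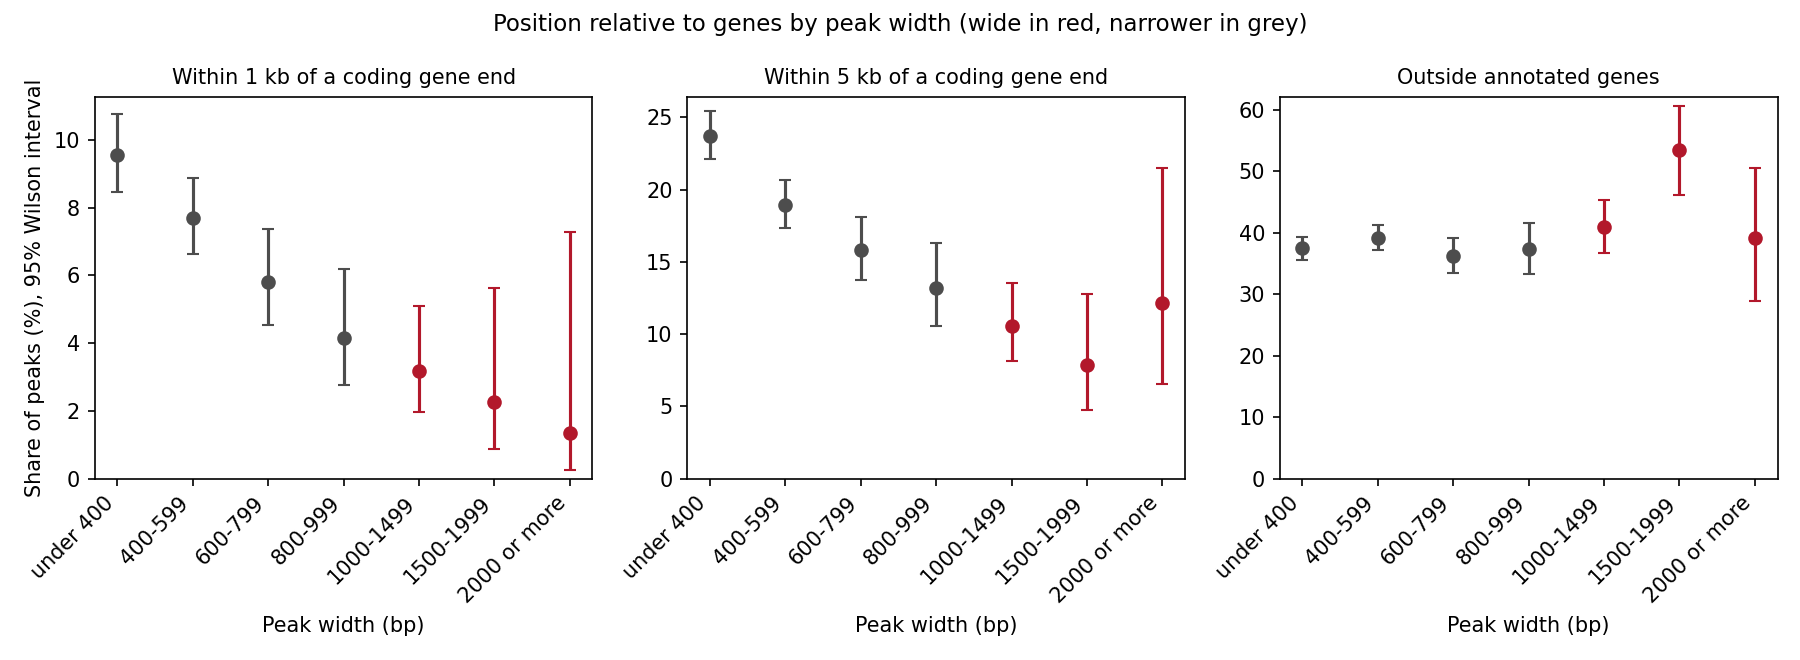
Share of peaks (y axis, %) in 7 width classes (x axis, bp), with 95% Wilson intervals, for peaks within 1 kb of a protein-coding gene end, within 5 kb of one, and outside annotated genes. Wide classes are red and narrower classes grey. The gene-end share falls from 9.55% to 1.35%, while the share outside genes peaks at 53.4% in the class from 1500 to under 2000 bp.

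The 21 wide peaks at gene ends ran from 1022 to 2331 bp. The widest lay 0.065 kb from an end of Angpt2, the gene of an antagonist ligand of the endothelial receptor TIE2, which sits inside Mcph1. It was followed by those at Ankrd40 (1784 bp), Zfp960 (1665 bp), Garem1 (1630 bp), Gm45975 (1531 bp), Cer1 (1476 bp) and Cyb561a3 (1444 bp). The next were at the potassium channel gene Kcnk2 (1430 bp), Plat, which encodes tissue plasminogen activator (1396 bp), Lmo1 (1381 bp), Zfp763 (1341 bp) and Naip6, of the NAIP family of inflammasome sensors (1337 bp). The Cer1 peak, at chr4:82884992-82886467, had its centre 0.579 kb upstream of the start site and overlapped the promoter printed above. The nearest other peak was 193 kb away. At Lmo1 the peak centre was 0.602 kb from the gene end, and a second wide peak, of 1237 bp, was centred 16.1 kb from it.

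The RefSeq promoter table gave start sites for 15869 of 19882 protein-coding genes on the 18 autosomes (79.8%) and for none on chromosome 18, so the comparison by start site, chosen after the data were seen, used the other 17. Within 1 kb of a protein-coding start site lay 10 of 715 wide peaks (1.40%) and 369 of 6087 narrower peaks (6.06%), an odds ratio of 0.220 (0.104 to 0.412, adjusted p = 1.29e-08, Fisher's exact test). Within 1 kb of the opposite end of such genes lay 2 wide peaks (0.280%) and 85 narrower peaks (1.40%), an odds ratio of 0.198 (0.0236 to 0.741, adjusted exact p = 0.0111). At start sites of long non-coding RNAs the shares were 2.80% of wide peaks (20) and 3.09% of narrower peaks (188), an odds ratio of 0.903 with an interval of 0.536 to 1.45 (adjusted exact p = 0.732). The difference between the kinds of gene was then tested itself. Of 177 peaks near a start site of a long non-coding RNA but of no protein-coding gene, 20 were wide (11.3%). Near a protein-coding start site only, 10 of 348 were wide (2.87%). The odds ratio of the first over the second was 4.29 (1.87 to 10.5, unadjusted exact p = 2.00e-04). Among all peaks compared on the 18 autosomes 10.7% were wide, so the share near protein-coding start sites is the one that stood apart. Of the 31 peaks near both kinds of start site, 0 were wide. The long non-coding RNA promoters under wide peaks include those of Lncenc1, under a peak of 2084 bp, 1110002J07Rik, whose start site was 58 bp from the centre of a 1545-bp peak, and 1600019K03Rik, at 47 bp from the centre of a 1475-bp peak.

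Wide peaks were also less often within 5 kb and within 500 kb of a gene end, while the difference at 50 kb did not pass. Within 5 kb of a protein-coding gene end lay 76 wide peaks (10.1%) and 1252 narrower peaks (19.9%), an odds ratio of 0.452 (0.349 to 0.578, adjusted p = 1.59e-11, Fisher's exact test with adjustment over 3 distances). Within 50 kb the shares were 63.6% of wide and 65.0% of narrower peaks, with an odds ratio of 0.939 (0.801 to 1.10, adjusted exact p = 0.444). Wide peaks lay at a median of 29.1 kb from a gene end (quartiles 11.5 and 84.1 kb) and narrower peaks at 27 kb (7.37 and 77.4 kb). Within 500 kb lay 737 wide peaks (97.6%) and 6241 narrower peaks (99%), an odds ratio of 0.407 (0.236 to 0.735, adjusted exact p = 0.00259), so that 18 wide peaks and 62 narrower peaks were more than 500 kb from any protein-coding gene end. Of these 18, 6 lay on chromosome 18, against 5 of the 62, and without chromosome 18 the call was lost (odds ratio 0.554, adjusted exact p = 0.110). The member farthest from a gene end, 1244 bp at chr14:113593033-113594276, was 1498.55 kb from Gpc5. Others of these desert peaks were 1617 bp at 1276.51 kb from Snx16, 2491 bp at 1072.74 kb from Lingo2 and 1605 bp at 913 kb from Celf4.

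**Figure D3:**
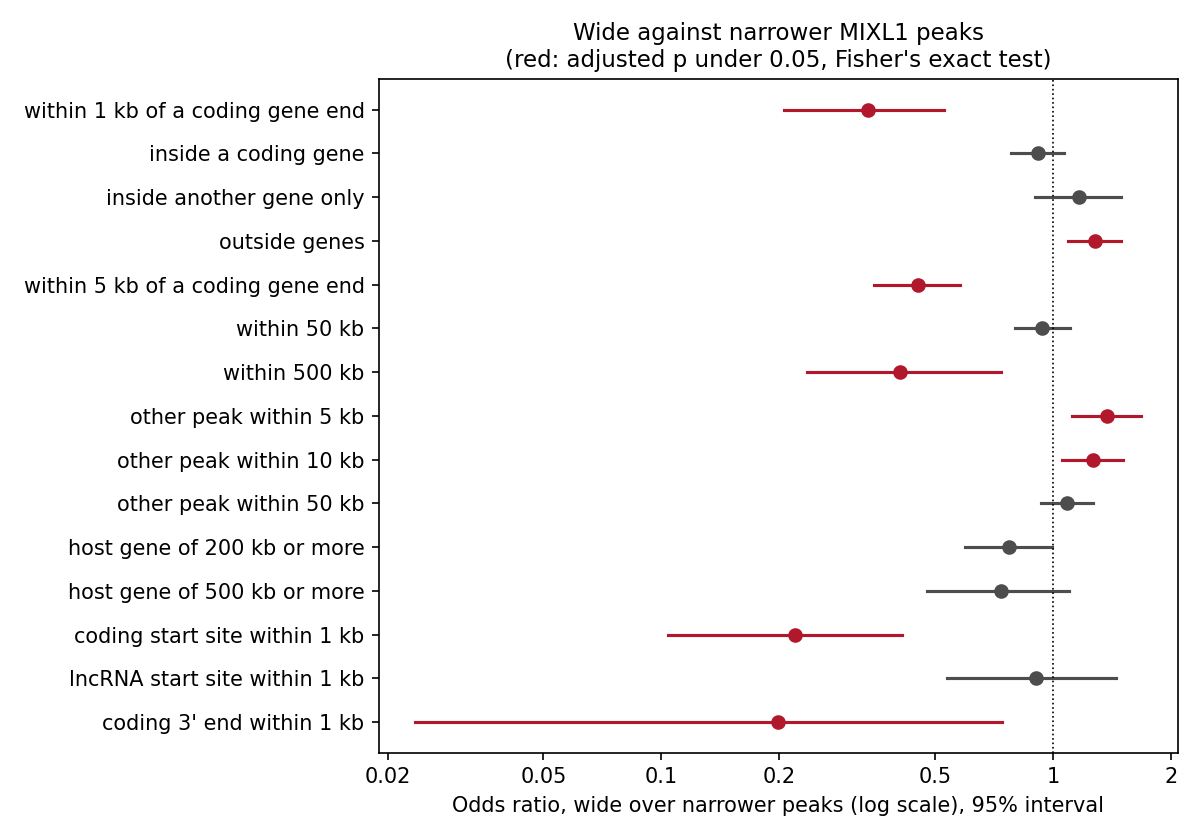
Odds ratios (x axis, log scale) of wide over narrower peaks with 95% intervals for the position and neighbour measures. Red marks an adjusted p under 0.05 by Fisher's exact test within each family of measures. Ratios lie below 1 at protein-coding gene ends and start sites, at 0.337 and 0.220, while the interval at start sites of long non-coding RNAs spans 1.

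Inside protein-coding genes, counting also those near an end, there were 336 wide and 3099 narrower peaks. The host gene was 200 kb or longer for 96 wide peaks (28.6%) and 1059 narrower peaks (34.2%), which did not pass after adjustment (odds ratio 0.771, interval 0.595 to 0.992, adjusted exact p = 0.0778). It was 500 kb or longer for 29 (8.63%) and 353 (11.4%), again without passing (odds ratio 0.735, interval 0.476 to 1.10, adjusted exact p = 0.143). Median host lengths were 113 kb for wide and 123 kb for narrower peaks. Where the strand was known, wide peaks sat at a median of 52.5% of the span from the 5′ end (240 peaks) and narrower peaks at 45.6% (2380 peaks). By 25% steps from the 5′ end, the wide peaks fell 21.7, 25.8, 31.7 and 20.8%, and the narrower peaks 31.4, 23.4, 23.9 and 21.2%. The 336 wide peaks were spread over 298 host genes, of which 270 held 1 and 8 held 3 or more. Those 8 were Gm5622 and Mtss1 with 4 each, and Zfp608, Aopep, Sh3rf1, Bcas3, Asic2 and Tcf7l1 with 3 each.

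Wide peaks more often had another listed peak close by. Another peak lay within 5 kb, edge to edge, of 135 wide peaks (17.9%) and 864 narrower peaks (13.7%), an odds ratio of 1.37 (1.11 to 1.68, adjusted p = 0.00709, Fisher's exact test with adjustment over 3 distances). Within 10 kb the shares were 24.2% and 20.2% (odds ratio 1.26, 1.05 to 1.51, adjusted exact p = 0.0174, lost without chromosome 8 or 17), and within 50 kb 51.0% and 48.9% (odds ratio 1.09, 0.931 to 1.27, adjusted exact p = 0.298). Among peaks with a neighbour within 10 kb, the neighbour was itself wide for 62 of 183 wide peaks (33.9%) and for 199 of 1274 narrower peaks (15.6%), which is a description because width chose both partners. The calls at 5 and 10 kb were lost where 1-Mb bins of 10 or more peaks were left out (odds ratios 1.24 and 1.09) and where peaks nearest to Zfp, Olfr, Vmn, Naip or Gm genes were left out (1.22 and 1.19). With 1 peak per 1-Mb bin the ratios were below 1, at 0.605 and 0.665, and did not pass. With a width of 1500 bp, a neighbour within 50 kb was less frequent for wide peaks (odds ratio 0.743, adjusted exact p = 0.0405). One within 5 kb stayed more frequent (odds ratio 1.45, adjusted exact p = 0.0405), and one within 10 kb did not pass (1.10).

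Genes with those names were nearest to 79 wide peaks (10.5%) and 370 narrower peaks (5.87%). Such genes often stand in arrays of near-identical copies, where reads may be placed on more than one copy, and the part of this in peak width was not tested. Whether reads with more than one placement were kept is not stated in words by the sources used here. Wide peaks spaced 50 kb or less apart formed 10 runs of 3 or more, with 34 wide peaks in all. The runs of 4 lay at Gm17175, Zfp608, the predicted genes Gm21663 and Gm21671, and the vomeronasal receptor genes Vmn2r49 and Vmn2r50. The runs of 3 lay at Naip6, Mtss1, the cytochrome P450 genes Cyp3a41a and Cyp3a41b, Tcf7l1, the defensin gene Defa21, and between Irx3 and Irx5. The stretch between the homeobox genes Irx3 and Irx5 held wide peaks of 1186, 1083 and 1438 bp from chr8:92071485-92072670 to chr8:92132816-92134253, at 270 kb from Irx3 and 243 and 224 kb from Irx5. Names of runs were picked after their values were seen.

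Wide peaks were spread over all 18 autosomes. They made up 7.69 to 15.6% of the peaks of a chromosome, lowest on chromosome 2 (44 of 572) and highest on chromosomes 17 (51 of 340, 15%) and 18 (40 of 256, 15.6%). No chromosome differed from the other 17 after adjustment over 18 Fisher's exact tests, with 0 past the threshold. For chromosomes 2, 17 and 18 the unadjusted exact p was under 0.05 and the adjusted p was 0.0810 each. Among the peaks kept, the median was 5 other peaks within 500 kb of both wide peaks (quartiles 3 and 8) and narrower peaks (3 and 7). The rule itself left out bins of 20 or more peak centres, so this is a description and no likeness in density is read from it.

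Among all 19882 protein-coding genes of these chromosomes, 8.38% had a wide peak within 100 kb of their span and 49.4% had a narrower peak there. Of the 1667 genes with a wide peak, 1477 had 1, 145 had 2, 27 had 3 and 18 had 4 or more, and 535 had no narrower peak within 100 kb. Neighbouring genes share peaks, so these are not separate loci. Of the 23 regulators of gastrulation and pluripotency named in the rule for genes, 4 had a wide peak within 100 kb, 15 had narrower peaks only, and T, Sox17, Pou5f1 and Wnt3 had neither. The 4 were Cer1, Lhx1 and the pair Lefty1 and Lefty2, which share 1 peak.

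**Figure D4:**
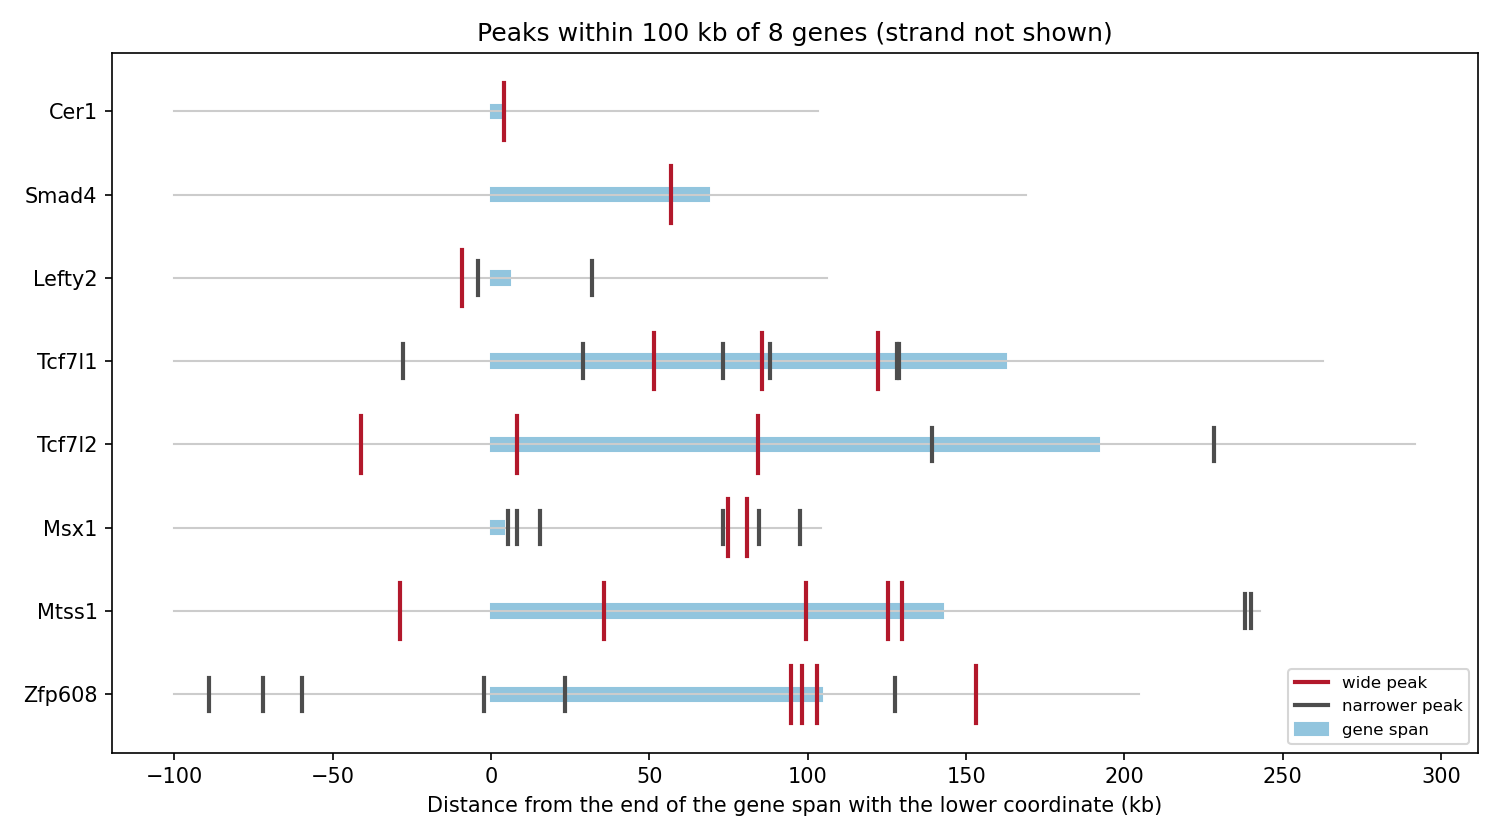
Peaks within 100 kb of 8 genes, by distance (x axis, kb) from the end of each gene span with the lower coordinate. Long red ticks are wide peaks, short grey ticks narrower peaks and blue bars gene spans. Cer1 and Smad4 have 1 wide peak and no narrower one, while 4 of the 5 wide peaks near Mtss1 lie inside the gene.

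In the Nodal and Activin pathway, wide peaks lay near some genes of inhibitors, receptors and SMAD partners. They did not lie near others of these kinds or near Nodal itself. Of its 27 genes, 6 had a wide peak within 100 kb (22.2%, beside 8.38% of all genes) and 17 had a narrower peak (63.0%, beside 49.4%). The wide peak of 1132 bp at chr1:180883564-180884695 was 8.41 kb from Lefty2 and 50.3 kb from Lefty1, the genes of the secreted Nodal inhibitors, and 187 kb from Mixl1. Lefty2 had 2 narrower peaks, of 588 bp at 3.71 kb and 380 bp at 25.6 kb. The Cer1 and Smad4 peaks are described above. Tgif1, which encodes a homeodomain repressor that acts with SMAD proteins, had a wide peak of 1435 bp 71.0 kb downstream. Acvr2b, an activin type 2 receptor gene, had one of 1270 bp 89.6 kb downstream. Nodal had 2 narrower peaks within 100 kb, and its nearest wide peak was 960 kb away. The receptor genes Acvr1b, Acvr1c and Acvr2a had no wide peak within 100 kb. The same held for Smad2, Smad3, Smad7, Fst, Bambi, Skil, Tgif2 and Foxh1.

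In the Wnt pathway, wide peaks lay in or near 2 of 4 genes of TCF and LEF factors (not Tcf7 or Lef1) and 3 of 10 Frizzled receptor genes (not Fzd1, Fzd2, Fzd4, Fzd6, Fzd8, Fzd9 or Fzd10). Of all 51 genes, 9 had a wide peak within 100 kb (17.6%) and 34 a narrower one (66.7%). Tcf7l1, whose product represses Wnt targets in pluripotent cells until beta-catenin binds it, held 3 wide peaks inside its span, of 1197, 1180 and 1394 bp at 111, 77.2 and 40.3 kb from the 5′ end. It also had 6 narrower peaks of 394 to 979 bp within 100 kb. Tcf7l2, a TCF gene of the same family, had 2 wide peaks inside the gene, of 1022 bp at 8.19 kb and 1006 bp at 84.2 kb from the 5′ end. Another, of 1149 bp, lay 40.4 kb upstream. The 1197-bp peak in Tcf7l1 and this 1149-bp peak overlapped promoters of the long non-coding RNAs Gm31391 and Gm41871, in that order. Rspo1, which encodes a secreted enhancer of Wnt signalling, had a wide peak of 2385 bp 51.9 kb upstream and no narrower peak within 100 kb. The Frizzled receptor gene Fzd5 had one of 1837 bp 60.9 kb upstream, also without a narrower peak, while Fzd3 had one of 1236 bp inside the gene and Fzd7 one of 1065 bp 71.4 kb upstream. The others were Znrf3, whose product removes Frizzled receptors from the cell surface (1335 bp at 64.1 kb), the ligand gene Wnt2 (1200 bp at 5.73 kb) and Dkk3 (1146 bp, inside).

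Notch genes had wide peaks in 4 of 25 cases (16%) and narrower peaks in 16 (64.0%). Maml3, a mastermind coactivator gene, had wide peaks of 1012 bp inside and 1011 bp 38.2 kb downstream. The others were the mastermind gene Maml1 (1536 bp, 56.3 kb upstream), the ligand gene Jag1 (1224 bp, 36.5 kb upstream) and the receptor gene Notch4 (2771 bp, 98.6 kb upstream). Definitive endoderm genes had them in 3 of 25 cases (12%), against 19 (76.0%) for narrower peaks. The 3 were Cer1, Lhx1, a LIM-homeodomain gene with a wide peak of 1132 bp 78.5 kb upstream beside 4 narrower peaks, and the adhesion gene Epcam with one of 1058 bp 62.0 kb downstream. Lhx1 was also the only gene of 24 in the primitive streak list with a wide peak (4.17%), while 17 had a narrower one (70.8%). Paired-type homeobox genes had wide peaks in 3 of 29 cases (10.3%), against 20 (69.0%) for narrower peaks. They included Pax2, with 2 of 1014 bp each, one upstream and one downstream, and Shox2 (1712 bp).

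Cardiac and lateral mesoderm genes had wide peaks in 5 of 25 cases (20.0%) and narrower peaks in 14 (56.0%). Msx1, a homeobox gene that responds to BMP, had wide peaks of 1547 and 1725 bp at 69.9 and 76.0 kb upstream, within a group of 3 further narrower peaks 69.1 to 93.5 kb upstream. The T-box gene Tbx2 had wide peaks of 1906 bp at 17.6 kb and 1176 bp at 98.0 kb, both inside the neighbouring gene Bcas3. Hopx had one of 1571 bp 7.08 kb upstream, which overlapped the promoter of the long non-coding RNA Gm15831. Genes of cell guidance and adhesion had wide peaks in 8 of 49 cases (16.3%) and narrower peaks in 31 (63.3%). Their median span was 321 kb, against 17.3 kb for all genes, so their windows were longer. Plxna4, a semaphorin co-receptor gene, held 2 wide peaks (1273 and 1395 bp), Ephb1 had one of 1778 bp upstream and Ntn1 one of 1624 bp.

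The remaining developmental lists had wide peaks near a share of their genes under the 8.38% of all genes at 100 kb, and FGF, BMP, blood and primitive streak genes stood above all genes at 50 or 250 kb. Their shares with a narrower peak were above the 49.4% of all genes, except for fibroblast genes. BMP genes gave 2 of 29 (6.90%) for wide and 25 (86.2%) for narrower peaks, with Bmp6 and Msx1, and FGF genes 2 of 27 (7.41%) and 23 (85.2%), with Etv5 and Spred2. Blood and endothelial genes gave 2 of 27 (7.41%) and 18 (66.7%), with wide peaks at Myb and Cdh5. Genes of epithelial-mesenchymal transition gave 1 of 27 (3.70%) and 16 (59.3%), the one being Epcam. Neural ectoderm genes gave 1 of 31 (3.23%) and 23 (74.2%), the one being Pax2. Of 26 pluripotency genes, 0 had a wide peak (95% Wilson interval up to 12.9%) and 13 had a narrower one. Of 21 fibroblast genes, listed for the feeder cells, 0 had a wide peak (interval up to 15.5%) and 6 a narrower one (28.6%).

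Of the 3 control lists, 2 are given here, and their shares differed from each other. T lymphocyte genes had wide peaks in 5 of 25 cases (20.0%) and narrower ones in 11 (44.0%), with Cd8a and Cd8b1 sharing 2 wide peaks, Ctla4 and Icos sharing 1, and Cd247 having 1. Ribosomal protein genes gave 3 of 40 (7.50%) and 24 (60.0%), with wide peaks near Rpl7, Rpl38 and Rps12. The T lymphocyte share for wide peaks was thus as high as that of the cardiac list and near that of the Nodal and Activin list, and nothing is read from the order of the lists. Within 50 kb, 4.96% of all genes had a wide peak, beside 3 of 27 Nodal and Activin genes (11.1%) and 4 of 25 T lymphocyte genes (16%). Within 250 kb it was 18.5% of all genes, beside 9 of 27 (33.3%) and 10 of 25.

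**Figure D5:**
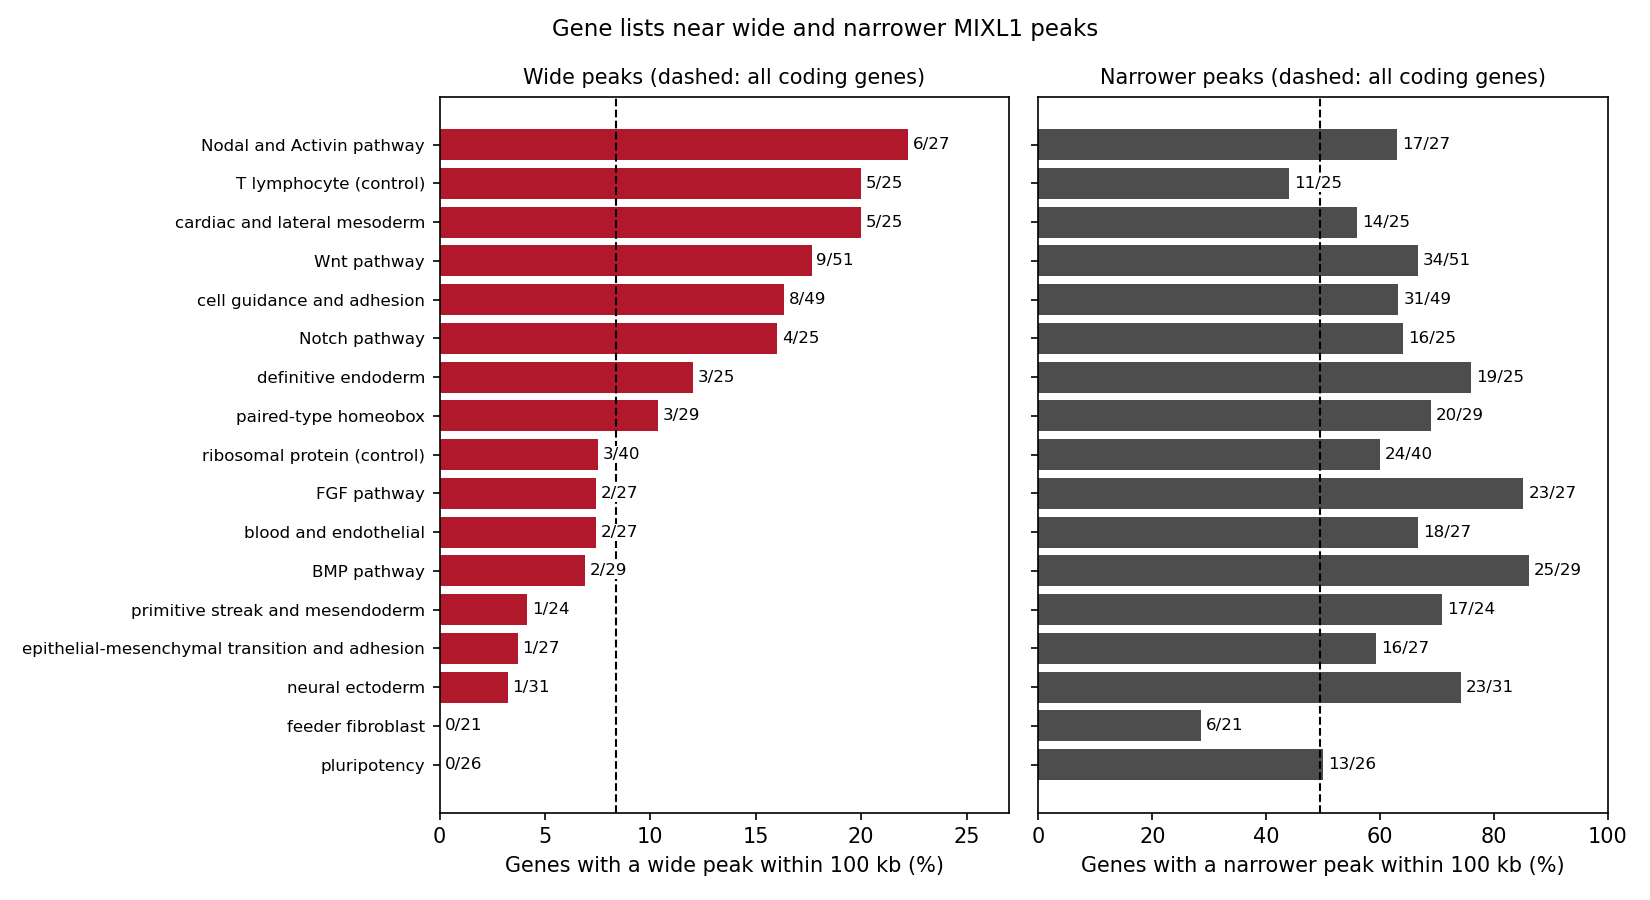
Share of the genes of 17 lists (x axis, %) with a wide peak (left, red) or a narrower peak (right, grey) within 100 kb of the gene span, with counts beside the bars. Dashed lines mark all protein-coding genes, at 8.38% for wide and 49.4% for narrower peaks, and the control list of T lymphocyte genes stands among the highest for wide peaks.

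The genes with the most wide peaks within 100 kb were led by Mtss1, which encodes an actin- and membrane-binding protein, with 5. Those inside Mtss1 measured 1049, 1007, 1356 and 1002 bp and the fifth, of 1528 bp, lay 28.0 kb beyond its span, while 2 narrower peaks lay 94.9 and 96.7 kb away. A further 17 genes had 4 each. Those with the largest summed width were Naip5, with 15 narrower peaks, the overlapping predicted genes Gm17175, Gm5622 and Gm7247, Zfp563, Cyp3a41a, and Gm1979, Gm21663 and Gm21671 on chromosome 5, which each had the same summed width of 6935 bp. Many of these genes have names of the array type described above. Actr3b, which encodes an actin-related protein, does not, and also had 4 wide peaks, with a summed width of 6865 bp. Its 100-kb window reaches into the run of wide peaks at Gm21663 and Gm21671, so its count is not separate from theirs. Zfp608, a zinc finger gene on chromosome 18, also had 4, of which 3 of 1127, 1816 and 2656 bp stood together at one end of the gene and 1 of 1171 bp lay 48.1 kb beyond it, with 6 narrower peaks of 241 to 647 bp around them.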

How the data were processed

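The authors deposited a single peak list for the 2 FLAG and 2 input libraries, which holds positions only. The submitters' processing notes name CASAVA 1.8.2, Bowtie2, SAMtools and MACS2, with mm10 as the build. How peaks were thresholded and filtered, how the input entered and whether replicates were pooled is not stated in these sources. The name given to the deposited list carries abbreviations that point to filters, and they are not explained. Depth is therefore unknown, and intervals cover counting of peaks only.

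Each peak was placed by its centre on RefSeq gene spans (GRCm38.p6, the mm10 assembly), less 340 genes listed below 3 Mb. As the table has no strand and start sites were known for only a part of the genes, gene-span ends took the place of the planned start sites. No genome sequence was used, so base composition and motifs of the peaks were left out and motifs were counted in RefSeq promoters. Shares of wide and narrower peaks were compared with Fisher's exact test, two-sided, with Benjamini-Hochberg adjustment within each family and a threshold of 0.05. The tests were checked on simulated peaks drawn independently of each other. That check does not cover the dependence of peaks that lie close together. Gene lists were described by counts, and 1 control list and some genes are not reported here.

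Named genes were those of the 15 widest peaks, the widest 12 at gene ends, the 10 genes with the most wide peaks, up to 3 per list, 23 fixed regulators and the peaks beside the width threshold. Genes named beyond these were chosen after their values were seen. The members and lists were chosen with earlier results of these data known. Positions are 1-based. The software was Python 3.11.15 with scipy 1.17.1, numpy 2.4.6, pandas 2.3.3 and matplotlib 3.10.9.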

Additional observations from a re-analysis of the deposited data

Results flagged for a closer look

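Wide peaks outside the chromosomes and bins compared are given apart because the comparisons of the report leave them out. Those on chromosome 12 outside dense bins, and those in dense bins of the other autosomes, enter only the alternatives that keep them. The others enter none. On contigs outside the assembled chromosomes, 44 of 195 peaks were wide (22.6%, 95% Wilson interval 17.3 to 28.9), up to 4163 bp. On chromosome 12, 277 of 1541 were wide (18%, 16.1 to 20.0), up to 4859 bp. On chromosome X, 19 of 71 were wide (26.8%, 17.9 to 38.1), up to 3511 bp. In 1-Mb bins of 20 or more peaks on the other autosomes, 124 of 733 were wide (16.9%, 14.4 to 19.8), up to 5441 bp. The peaks compared in the report had 10.7% wide. These differences were not tested, and no cause was examined.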

How the results depend on the processing

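Odds ratios below are wide over narrower peaks, and the cause of each change was not tested. With a width of 800 bp, peaks inside other genes passed (1.32), as did a neighbour within 50 kb (1.16). With 1500 bp, a neighbour within 10 kb no longer passed (1.10). One within 50 kb turned and passed in that direction (0.743, adjusted p = 0.0405, Fisher's exact test). With 2000 bp, which leaves 74 wide peaks, the results for gene ends (0.173) and outside genes (1.03) no longer passed. Nor did a gene end within 5 kb (0.595) or 500 kb (0.407), or a neighbour within 5 kb (1.42). A neighbour within 10 kb turned without passing (0.977), and hosts of 200 kb or more passed (0.379). A neighbour within 50 kb passed with chromosome 12 kept (1.16) or dense bins kept (1.22). With dense bins kept, the ratios for neighbours within 5 and 10 kb were 1.55 and 1.47, above the 1.37 and 1.26 of the main comparison. Neighbours within 5 and 10 kb no longer passed without bins of 10 or more peaks (1.24 and 1.09) or, an alternative chosen after seeing the data, without genes of array-type names (1.22 and 1.19). With 1 peak per bin they turned without passing (0.605 and 0.665). In that setting a gene end within 50 kb passed (0.663), and a neighbour within 50 kb did not (0.858). Leaving out 1 chromosome at a time gave 0.343 to 0.554 for 500 kb, lost without chromosome 18, 1.21 to 1.32 for a neighbour within 10 kb, lost without chromosome 8 or 17, and 0.705 to 0.829 for hosts of 200 kb or more, which passed without chromosome 2. Gene ends (0.292 to 0.366), 5 kb (0.420 to 0.472) and outside genes (1.22 to 1.35) kept their call without any 1 chromosome. Of 18 gene lists, 8 had a higher share with a wide peak than all genes at 100 kb, 10 at 50 kb and 11 at 250 kb. Definitive endoderm genes, above at 100 kb, were below at 50 kb (4%) and 250 kb (16%), FGF genes were above at 50 kb (7.41%) and 250 kb (22.2%), blood genes at 50 kb (7.41%), ribosomal protein genes at both (2 of 40 and 22.5%), and BMP (27.6%) and primitive streak genes (25%) at 250 kb. No paired analysis was possible because the series has 1 peak list with no value per library.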

Other observations

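The widths of the members did not fall evenly. Per 100 bp of width, from 1200 bp upward, the members numbered 67, 79, 53, 43, 57, 52, 15 and 11, so that 109 peaks from 1600 to under 1800 bp stood above both neighbouring ranges. The 464 wide peaks that the rule left out showed no such rise, with 56, 30, 42, 34, 25, 18, 14 and 10 in the same ranges. The 109 peaks came from all 18 autosomes. Outside annotated genes were 60 of them (55.0%), against 270 of the other 646 wide peaks (41.8%), and inside protein-coding genes 34 (31.2%) against 287 (44.4%). This range was picked after the widths were seen, so no test is given.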
